A study of Homo sapiens with 6 samples.

Results

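A group of 10 inflammatory genes that airway epithelial cells can switch on was followed across doses of transforming growth factor beta 1 (TGF-β1). They are 4 CXC chemokines (CXCL1, CXCL2, CXCL3 and CXCL5), 2 CC chemokines (CCL2 and CCL20), 2 serum amyloid A genes (SAA1 and SAA2), TNFAIP2 and SOD2. They were picked by gene symbol, with earlier results of these data known, and are 10 of the 25737 entries (24462 different symbols) of each count table. The cells were A549, a lung carcinoma line, and BEAS-2B, an immortalized line from bronchial epithelium, both wild type per the labels. Each line was kept without TGF-β1 or was given 1 or 5 ng/mL for 48 h, which makes 6 conditions. Both lines were grown with 10% fetal bovine serum, and the treated cells received TGF-β1 in medium with 1% serum. Whether the control cells were also moved to 1% serum is not stated, so the serum and the cytokine cannot be told apart in a comparison with the control. The transcriptome of each condition was read from 1 library made from the 3′ ends of mRNAs, so the spread between cultures is unknown, no difference could be tested against replicates and no p-value is given. Both lines are models of 1 origin each, and a bulk library does not tell fewer expressing cells from less RNA per cell.

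Chemokines are small secreted proteins that draw white blood cells along a gradient. The 4 CXC members carry the sequence Glu-Leu-Arg before their cysteines and act on the receptor CXCR2 of neutrophils, while CCL2 attracts monocytes through CCR2 and CCL20 attracts lymphocytes and dendritic cells through CCR6. Most of these genes, together with the acute-phase genes SAA1 and SAA2, with TNFAIP2 and with SOD2, are known targets of NF-kB, the transcription factor that interleukin-1 and tumor necrosis factor activate in epithelium.

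The 4 CXC genes lie together on chromosome 4 in the GENCODE annotation of the human build GRCh38. CXCL1 is on the plus strand at chr4:73869393-73871242, and CXCL5, CXCL3 and CXCL2 are on the minus strand at chr4:73995642-73998779, chr4:74036589-74038807 and chr4:74097035-74099293. SAA2 and SAA1 are neighbors on chromosome 11, at chr11:18239223-18248643 on the minus strand and chr11:18266174-18269977 on the plus strand. CCL2 is at chr17:34255218-34257203, CCL20 at chr2:227805739-227817564 and TNFAIP2 at chr14:103123442-103137439, all on the plus strand, and SOD2 is at chr6:159669057-159745186 on the minus strand. GENCODE lists another, overlapping gene under the symbol SOD2, at chr6:159679119-159762529 on the same strand. The submitters' processing notes name the older build hg19 for the counts, so these positions are those of the genes and not of the intervals in which tags were counted.

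RefSeq promoter sequences of GRCh38.p14, from 250 bases before to 50 bases after a start site, were at hand for 7 of the 10 genes, namely CXCL1, CXCL2, CXCL3, CXCL5, CCL20, TNFAIP2 and SOD2, the last with 4 start sites. They were searched on both strands for a strict form of the motif that NF-kB binds, GGGA and TTTCC with 1 base of any kind between them, and for a looser form, GGG and TTCC with 3 bases of any kind between them, which includes the strict form. The strict form stood in each of the 4 CXC promoters and in 0.558% of all 35116 promoters of the same length. The windows below show it with 10 bases on each side, with the match in capitals, because these 4 genes are compared with each other in what follows.
CXCL1: ctggaactccGGGAATTTCCctggcccggg
CXCL2: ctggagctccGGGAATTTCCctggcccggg
CXCL3: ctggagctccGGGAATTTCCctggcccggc
CXCL5: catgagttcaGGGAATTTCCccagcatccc
The CXCL1 window is at chr4:73869304-73869333 on the plus strand, with its match 79 to 70 bases before the start site. The other windows are on the minus strand, at chr4:74099254-74099283 for CXCL2, chr4:74038749-74038778 for CXCL3 and chr4:73998749-73998778 for CXCL5, with the match starting 78, 79 and 91 bases before the RefSeq start. These last 3 windows fall inside the wider bounds that GENCODE gives the same genes. The windows of CXCL1, CXCL2 and CXCL3 shared 28 or 29 of 30 bases with each other, whereas that of CXCL5 shared 18 to 20 of 30 with them.

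CCL20 held the looser motif on the opposite strand, at a place much like that of the CXC genes, 79 to 70 bases before its start. The looser motif stood in 6.52% of all promoters. It is shown here in capitals, from chr2:227813753-227813782 on the plus strand.
CCL20: tgatcaatggGGAAAACCCCatgtggcaac
Neither form stood in the TNFAIP2 window or in the 4 SOD2 windows. A match of letters is a description of the sequence and not a measured binding site, and the lack of a match covers these windows only.

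Total counts ranged from 4120624 to 7841350 per library. Counts were scaled by the TMM method to a common library size, and the result is called the normalized count. The ND value of a gene is log2 of its normalized count plus 1. A gene was called lower or higher when the fold change (FC, with 1 added to both normalized counts) was at least 2 and 1 or both of the libraries compared had an ND value of 7 or more. The values 2 and 7 are the limits that the study set for differentially expressed genes. The study does not state which library must reach the ND limit, so the rule of 1 or both libraries was chosen here. An ND value of 7 is a normalized count of 127 and corresponded to between 101 and 185 counts. Fold values below are ratios of normalized counts without the added 1, with exact 95% intervals (Clopper-Pearson) that cover counting error only. A count of 0 was read as at most 3 counts, which is 0.383 to 0.728 CPM depending on the library. Folds given as at least a value use this floor and leave out the counting error of the other library. Their exact intervals reach lower. Of 10 genes known to respond to TGF-β1, 8 were called higher in A549 and 9 in BEAS-2B at 5 ng/mL. The epithelial markers KRT7, KRT8, KRT18, KRT19, EPCAM and CDH1 summed to between 4703 and 6010 CPM (counts scaled by the library total) in the A549 libraries, against 682 to 846 in the BEAS-2B libraries, where EPCAM was at 0 throughout. Within that sum the markers moved apart in A549 cells, where CDH1 had 640, 30 and 8 counts, KRT8 was 4.36-fold lower at 5 ng/mL (4.13 to 4.59) and KRT7 was 4.35-fold higher (4.19 to 4.51). Of 8 leukocyte markers, CD3E and MPO were among those at 0 in all 6 libraries, and the 8 summed to 12.0 to 27.3 CPM for A549 and 1.46 to 11.3 for BEAS-2B, highest in the control of each line. The part of these marker changes in the results below was not tested. Of 6 fibroblast and endothelial markers, VWF and CDH5 were at 0 throughout, and the 6 summed to 0.652 to 11.6 CPM.

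Relative to the control of the same line, 7 of the 10 genes were called lower at 5 ng/mL in A549 and 6 of 10 in BEAS-2B, and 0 were called higher in either line. Shares of all entries called are given here and below over the entries that reached the ND limit, whereas the 10 genes are counted with those below it. Because the 10 genes were chosen with earlier results of these data known, the shares and medians of all entries are a description beside them. They give no support to the contrast. Of the entries at the limit, 17.1% were called lower and 16.1% higher in A549, and 11.6% and 7.33% in BEAS-2B. At 1 ng/mL, 7 of the 10 genes in A549 and 6 of 10 in BEAS-2B were called lower, against 12.6% and 9.13% of entries at the limit. Again 0 of the 10 were called higher at that dose, against 10.9% and 5.66% of entries at the limit. With an FC of at least 2 and no ND limit, 10 of 10 genes lay lower in A549 cells at 1 ng/mL (18.3% of entries with a count) and at 5 ng/mL (25.3%). By the same rule 7 of 10 lay lower for BEAS-2B at 1 ng/mL (18.4%) and 9 of 10 at 5 ng/mL (19.3%), and CCL20 lay higher at 1 ng/mL.

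The median log2 FC over the 10 genes was -2.04 at 1 ng/mL and -3.37 at 5 ng/mL in A549, and -2.09 and -2.55 in BEAS-2B. Over all entries at the limit, the median was 0.09, 0.11, 0.01 and 0.03 in the same order. The counting interval of the ratio lay below 1 for 10 of 10 genes in A549 cells at both doses, and for 8 (1 ng/mL) and 9 (5 ng/mL) of 10 in BEAS-2B. Each line has a single control library, so its comparisons share it and are not independent of each other. TNFAIP2 and SOD2 reached the ND limit in all 6 libraries, CXCL1 in 5, CXCL5 in 3 and CCL2 in 2. The 2 libraries of CCL2 are the controls, CXCL2, CXCL3, SAA1 and SAA2 reached it only in 1 control library and CCL20 in 0 libraries. A gene that reaches the limit only in a control is bound to lie lower in the treated library. At 5 ng/mL this holds for 4 of the 7 calls in A549 cells (CXCL1, CXCL2, CXCL3 and CCL2) and for 3 of the 6 in BEAS-2B cells (CCL2, SAA1 and SAA2), whose direction the limit therefore fixed. At 1 ng/mL it likewise fixed the calls of CXCL2, CXCL3 and CCL2 in A549 cells and of CCL2, SAA1 and SAA2 in BEAS-2B cells. In both libraries compared at 5 ng/mL, the limit was reached by CXCL5, TNFAIP2 and SOD2 in A549 cells and by CXCL1, TNFAIP2 and SOD2 in BEAS-2B cells.

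**Figure D1:**
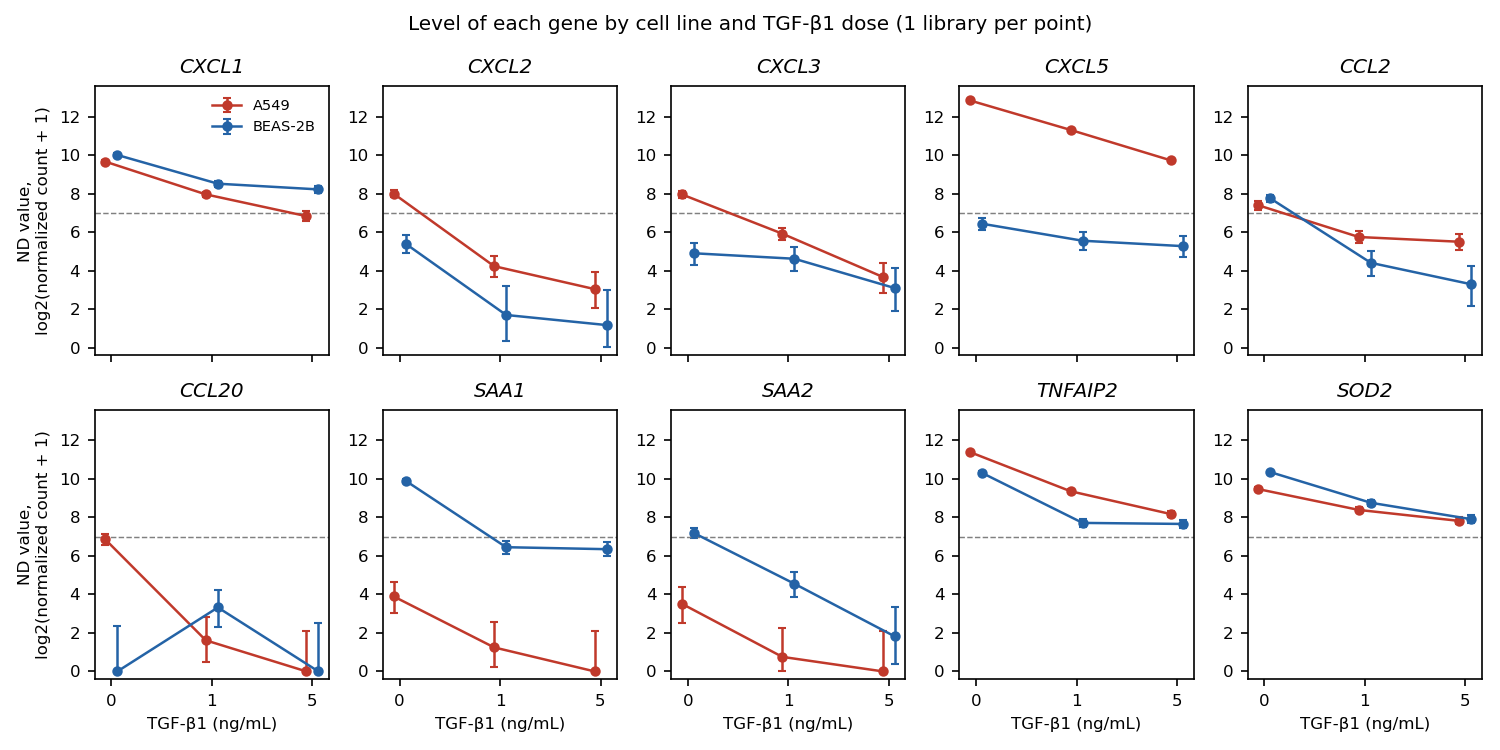
ND value, log2(normalized count + 1), of each of the 10 genes (vertical axes) at 0, 1 and 5 ng/mL TGF-β1 (horizontal axes, doses evenly spaced) in A549 (red) and BEAS-2B (blue) cells, with 1 library per point, 95% counting intervals as bars and the ND limit of 7 as a dashed line. The control is the highest library of its line for all genes except CCL20 in BEAS-2B cells, where only the 1 ng/mL library holds counts.

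Among the CXC chemokines, CXCL1, a neutrophil attractant also known as GRO-alpha, was well counted in both lines. A549 cells had a normalized count of 813, 249 and 113 for 0, 1 and 5 ng/mL. BEAS-2B cells had 1033, 367 and 299. Both treated libraries of each line were below their control, and the 2 controls were close to each other. At 5 ng/mL, CXCL1 was 7.17-fold lower than the control in A549 (5.92 to 8.75) and 3.46-fold lower in BEAS-2B (2.997 to 4.01). From 1 to 5 ng/mL it was lower by a further 2.20-fold in A549 (1.79 to 2.72) and 1.23-fold in BEAS-2B (1.04 to 1.46).

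CXCL2, a close paralog of CXCL1 with the same target cells, had a normalized count of 256, 17.9 and 7.26 in A549 cells. The difference thus lay mainly between 0 and 1 ng/mL, where CXCL2 was 14.3-fold lower (9.52 to 22.4), and it was 35.3-fold lower at 5 ng/mL (17.6 to 82.7). In BEAS-2B cells 37, 2 and 1 counts were found, so that the gene was nearly undetected after treatment. The ratio of 37 to 1 counts, 32.8-fold at 5 ng/mL, carries an interval of 5.53 to 1329, and CXCL2 did not reach the ND limit in this line.

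CXCL3, the third of these near copies, was at 249, 59.8 and 11.8 normalized counts in A549 cells, with a clear step at each dose. It was 4.17-fold lower at 1 ng/mL (3.23 to 5.41) and 21.1-fold lower at 5 ng/mL (12.1 to 40.3). BEAS-2B cells gave only 26, 21 and 6 counts. At 1 ng/mL the ratio in BEAS-2B cells was not apart from 1, at 1.23-fold lower (0.664 to 2.29), whereas at 5 ng/mL it was 3.84-fold lower (1.54 to 11.4).

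CXCL5, an epithelial neutrophil attractant, was split unevenly between the lines. A549 cells held 7366, 2550.3 and 849 normalized counts at the 3 doses. BEAS-2B cells held 85.9, 46.1 and 37.8, and even the lowest A549 library was above the highest of BEAS-2B. CXCL5 was 2.89-fold lower at 1 ng/mL (2.77 to 3.01) and 8.67-fold lower at 5 ng/mL (8.10 to 9.30) in A549 cells, with a further 3.003-fold step between the doses (2.79 to 3.23). In BEAS-2B cells it was 1.86-fold lower (1.26 to 2.79) and 2.27-fold lower (1.47 to 3.59), below the ND limit in each library.

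The gene that made up most of the CXC group differed between the lines, and the share of that gene moved little with dose. Of the summed normalized counts of the 4 genes, CXCL5 made up 84.8%, 88.6% and 86.5% for A549, in the order of the doses. For BEAS-2B, CXCL5 made up 7.22%, 10.5% and 10.9%, and CXCL1 made up 86.9%, 83.6% and 86.5%. These are shares of 3′ tags that were not divided by transcript length. The sum itself was 8685, 2877 and 982 in A549 cells and 1189, 439 and 345 in BEAS-2B cells.

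Part of the CXC counts could have been assigned to the wrong copy. In the last 500 bases of the annotated transcripts, which 3′ libraries read, CXCL1 and CXCL2 shared 46 of 451 stretches of 50 bases (10.2%), and the other pairs of the 4 shared 0. Summing CXCL1, CXCL2 and CXCL3 gave a log2 FC of -2.01 at 1 ng/mL and -3.31 at 5 ng/mL for A549, and of -1.49 and -1.84 for BEAS-2B. The direction of the sum does not rest on how reads were split among the 3 genes. CXCL1 dominates the sum in BEAS-2B, with 926 control counts against 37 for CXCL2 and 26 for CXCL3. The sum therefore cannot show whether CXCL2 or CXCL3 alone was affected by wrong assignment.

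Other genes of the chromosome 4 cluster were also counted. CXCL8, a potent neutrophil attractant, lies outside the stretch of 230 kb from CXCL1 to CXCL2 and had 163, 114 and 86 counts in A549 cells. In BEAS-2B cells it had 324, 197 and 161 counts, more than CXCL2, CXCL3 and CXCL5 there. CXCL8 was 2.42-fold lower at 5 ng/mL in A549 cells (1.85 to 3.18), where it was called, and 1.78-fold lower in BEAS-2B cells (1.47 to 2.17), where it was not. CXCL6 had 91, 18 and 22 counts in BEAS-2B cells and 0, 2 and 0 in A549 cells, the opposite of CXCL5 as to the line that held it. PPBP and PF4V1, platelet chemokine genes located between or beside them, had at most 1 count in each library, and PF4 had 12, 0 and 1 counts in A549 and 0 in BEAS-2B.

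**Figure D2:**
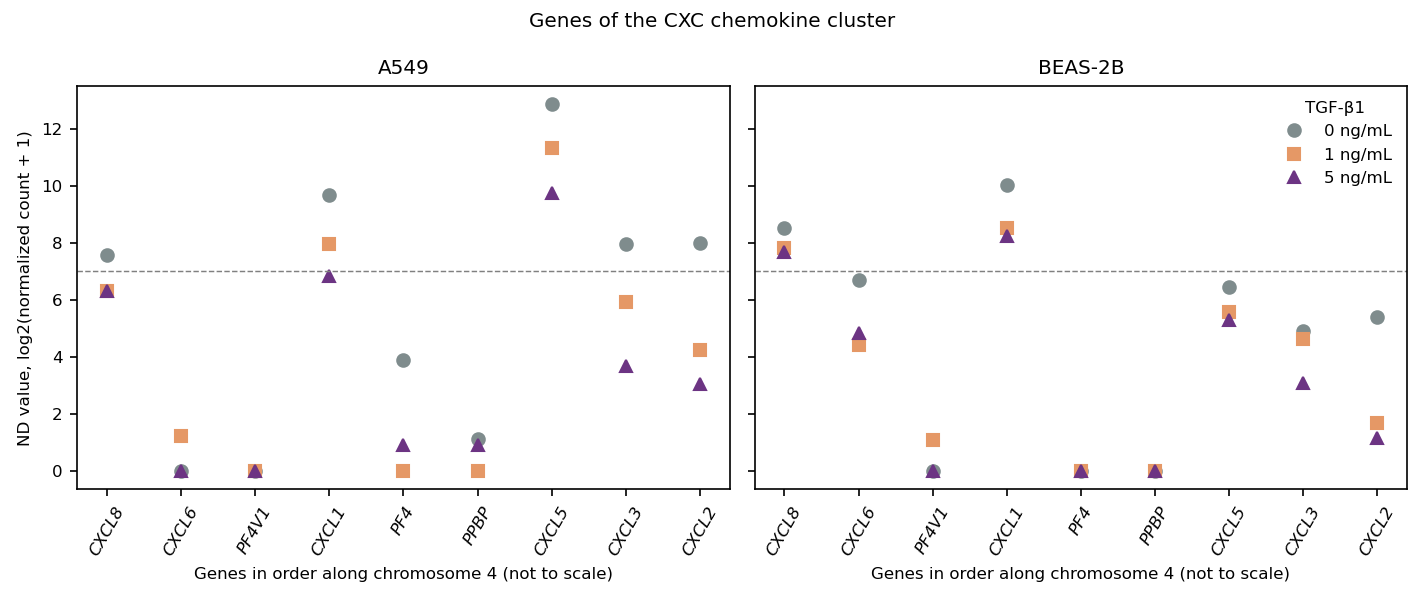
ND value, log2(normalized count + 1), of 9 protein-coding genes of the CXC chemokine cluster in their order along chromosome 4 (not to scale) in A549 (left) and BEAS-2B cells (right), with 1 library per symbol, gray circles for 0, orange squares for 1 and purple triangles for 5 ng/mL, and the ND limit of 7 dashed. CXCL5 stands highest in A549 and CXCL1 in BEAS-2B, and the control lies above both treated libraries for CXCL8, CXCL1, CXCL5, CXCL3 and CXCL2 in both lines.

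Turning to the CC chemokines, CCL2, the monocyte attractant MCP-1, started from similar levels in the 2 lines. Its normalized count was 168, 52.9 and 44.5 in A549 cells. BEAS-2B cells had 215, 20.3 and 8.82, which came from 193, 18 and 7 counts. CCL2 was 3.78-fold lower at 5 ng/mL in A549 (2.72 to 5.34) and 24.4-fold lower in BEAS-2B (11.6 to 61.5). The 2 treated A549 libraries were not apart from each other, with a ratio of 1.19 (0.821 to 1.74), and neither were those of BEAS-2B cells at 2.30 (0.916 to 6.51). In the CCL2 cluster on chromosome 17, CCL7 had at most 1 count and CCL8, CCL11, CCL13 and CCL1 had 0 counts in each library.

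CCL20, which recruits CCR6-bearing lymphocytes to mucosa, had 99, 3 and 0 counts in A549 cells. The 99 counts of the control are an ND value of 6.85, just under the limit of 7, so CCL20 was called in 0 comparisons despite a ratio of 55.6-fold lower at 1 ng/mL (18.5 to 274). At 5 ng/mL it was at least 42.1-fold lower with 0 counts read as 3, and the exact interval reached down to 33.6-fold. In BEAS-2B cells CCL20 had 0, 8 and 0 counts. The 8 counts at 1 ng/mL were at least 2.69-fold above the control by the same floor, with an exact interval from 1.72-fold. This was the only ratio of the 10 genes to a control whose interval lay above 1.

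SAA1 and SAA2 encode the acute-phase serum amyloid A proteins, lipid-binding proteins that rise in blood during inflammation. SAA1 had a normalized count of 958, 86.6 and 80.6 in BEAS-2B cells, so nearly the whole difference lay between 0 and 1 ng/mL. It was 11.1-fold lower at 1 ng/mL (8.75 to 14.2) and 11.9-fold lower at 5 ng/mL (9.21 to 15.6), with a ratio between the doses of 1.07 (0.761 to 1.52). A549 cells had only 12, 2 and 0 SAA1 counts, which makes SAA1 at least 5.11-fold lower at 5 ng/mL by the floor (exact interval from 3.55-fold).

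SAA2 differed from SAA1 in that it was lower again at the higher dose. BEAS-2B cells held 130, 20 and 2 SAA2 counts, or 145, 22.5 and 2.52 after scaling. SAA2 was 6.44-fold lower at 1 ng/mL (4.01 to 10.9), and 8.93-fold lower at 5 than at 1 ng/mL (2.17 to 78.8). In A549 cells the gene had 9, 1 and 0 counts, at least 3.83-fold lower at 5 ng/mL by the floor (exact interval from 2.52-fold).

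Part of the 3′ sequence of SAA1 also stands in the annotated SAA2 transcript, so some tags could have been assigned to the wrong gene. Of the stretches of 50 bases in the last 500 bases of SAA1, 137 of 451 (30.4%) stood somewhere in SAA2. The reverse search, from the last 500 bases of SAA2 into SAA1, gave no match. The 2 genes are therefore also given summed. Their sum was 1103, 109 and 83.1 normalized counts in BEAS-2B cells and 24.3, 2.06 and 0 in A549 cells, which is for BEAS-2B a log2 FC of -3.33 at 1 ng/mL and -3.71 at 5 ng/mL. SAA4, the constitutive member next to SAA2, had at most 3 counts in each library.

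TNFAIP2, a cytoplasmic protein first found as a gene induced by tumor necrosis factor and related to exocyst subunits, was among the best counted of the 10. A549 cells gave 2689, 657 and 288 normalized counts. BEAS-2B cells gave 1269, 209 and 202, with the 2 treated libraries nearly equal. TNFAIP2 was 4.09-fold lower at 1 ng/mL (3.80 to 4.42) and 9.35-fold lower at 5 ng/mL (8.31 to 10.5) in A549 cells. In BEAS-2B cells it was 6.06-fold lower (5.19 to 7.12) and 6.30-fold lower (5.33 to 7.48), and the ratio of the 2 doses held 1, at 1.04 (0.836 to 1.29).

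SOD2, the mitochondrial manganese superoxide dismutase, showed the smallest ratio of the genes called in A549 cells at both doses. Its normalized count was 709, 335 and 225 in A549 cells and 1308, 433 and 239 in BEAS-2B cells. Each dose was below the previous one in both lines, and the 2 libraries at 5 ng/mL were not apart from each other. SOD2 was 2.12-fold lower at 1 ng/mL in A549 cells (1.88 to 2.39), a call that was lost when the trend of FC over GC content of the whole transcript (log2 FC of -0.90) was removed, or that over its last 500 bases (-0.998), which were steps chosen after seeing the data. At 5 ng/mL it was 3.15-fold lower (2.71 to 3.67) in A549 cells. In BEAS-2B cells it was 3.02-fold lower (2.69 to 3.40) and 5.47-fold lower (4.69 to 6.41).

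**Figure D3:**
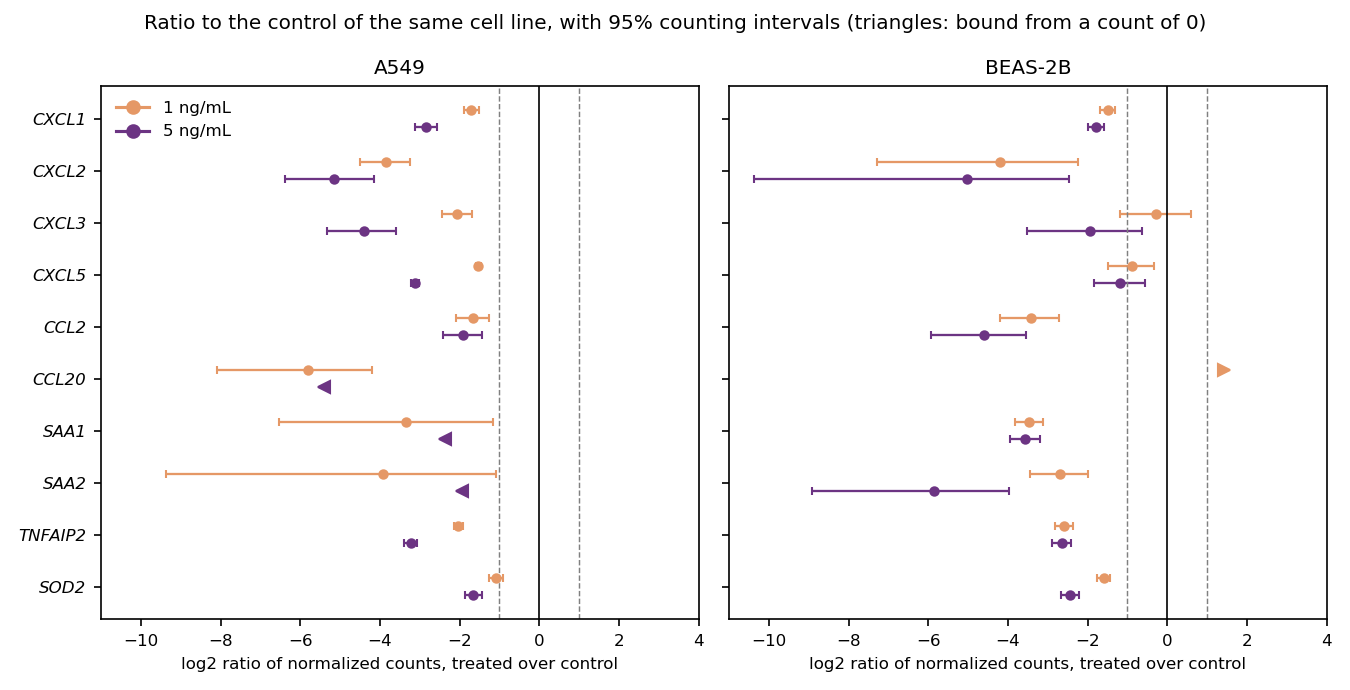
Log2 ratio of the normalized count at 1 ng/mL (orange) or 5 ng/mL (purple) to that of the control (horizontal axes) for the 10 genes in A549 (left) and BEAS-2B cells (right), with 95% counting intervals as bars, triangles for bounds where 1 library holds 0 counts, a line at 0 and dashed lines at a 2-fold ratio. CCL20 in BEAS-2B cells is the only gene right of 0, with 0 and 8 counts, and it has no symbol at 5 ng/mL because both libraries hold 0 counts.

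CXCL1, CCL2, TNFAIP2 and SOD2 were called lower in all 4 comparisons with a control. CXCL2, CXCL3 and CXCL5 were called in the 2 comparisons of A549 cells only, and SAA1 and SAA2 in the 2 of BEAS-2B cells only. Outside these calls the ratio pointed the same way with an interval below 1 for CXCL2 and CXCL5 in BEAS-2B cells and for SAA1 and SAA2 in A549 cells, so the calls by line also reflect in which line the gene reached the ND limit.

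Between the 2 doses, 3 of the 10 genes were called lower at 5 than at 1 ng/mL in A549 cells, namely CXCL1, CXCL5 and TNFAIP2, against 1.79% of entries at the limit. CXCL1 reached the limit there at 1 ng/mL only, so the direction of its call was fixed, whereas CXCL5 and TNFAIP2 reached it at both doses. In BEAS-2B cells 0 of the 10 were called, against 0.412% of entries at the limit. None was called higher, against 1.61% and 0.492% of entries at the limit. The interval of the ratio lay below 1 for 6 genes in A549 and for 5 in BEAS-2B. For CCL20, SAA1 and SAA2, the A549 libraries at both doses held no more than 3 counts, so their ratio between the doses is not given. With no ND limit, 7 of 10 genes lay lower by an FC of at least 2 in A549, CCL20 and SAA1 with their few counts among them (11.9% of entries with a count), and 4 of 10 in BEAS-2B (10.2%). The median log2 FC of the 10 genes between the doses was -1.19 in A549 and -0.69 in BEAS-2B, next to 0.01 in both lines for all entries at the limit. In all, the 10 genes made up 0.258%, 0.0729% and 0.0278% of all A549 counts in the order of the doses, and 0.107%, 0.0236% and 0.0169% of those of BEAS-2B cells.

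The response of the 2 lines was set side by side as the difference of their log2 ratios, with an approximate 95% interval from counting error. At 5 ng/mL, CXCL1, CXCL3 and CXCL5 were lowered further in A549 cells, by 1.05 (0.71 to 1.39), 2.50 (1.03 to 3.97) and 1.95 (1.33 to 2.56) on the log2 scale. At 1 ng/mL the interval lay on the same side for CXCL3 and CXCL5 but held 0 for CXCL1, at 0.21 (-0.05 to 0.47). CCL2 and SOD2 were lowered further in BEAS-2B cells at 5 ng/mL, with a difference of -2.61 (-3.76 to -1.46) and -0.79 (-1.10 to -0.49). Their sign was the same at 1 ng/mL. TNFAIP2 changed sides with dose, as BEAS-2B cells were ahead at 1 ng/mL, at -0.56 (-0.81 to -0.32), and A549 cells at 5 ng/mL, at 0.57 (0.28 to 0.86). For CXCL2, SAA1 and SAA2 the interval held 0 at both doses, and it was too wide to place the lines, for instance -1.97 to 3.14 for CXCL2 at 5 ng/mL. None of these differences could be checked against the spread between cultures.

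Before treatment, the lines differed in which of the 10 genes they held. In the A549 control, 4 genes were called higher than in the BEAS-2B control (18.1% of entries at the limit were) and 2 were called lower (18.9%, or 20.4% of entries with a count when no ND limit was set). CXCL5 was 85.8-fold higher in A549 cells (68.5 to 109), CXCL3 8.59-fold (5.70 to 13.4), CXCL2 6.20-fold (4.37 to 9.04) and TNFAIP2 2.12-fold (1.97 to 2.28). CCL20 was at least 34.3-fold higher in A549 cells by the floor (exact interval from 27.4-fold), under the ND limit. SAA1 was 68.9-fold lower (39.2 to 134) and SAA2 13.9-fold lower (7.10 to 31.1) in A549 cells. Of the called genes, only TNFAIP2 reached the ND limit in both controls. CXCL5, CXCL3, CXCL2, SAA1 and SAA2 reached it only in the control where they were higher, so the limit fixed the direction of their calls. CXCL1, CCL2 and SOD2 were 1.27-fold, 1.28-fold and 1.85-fold lower in A549 cells and were not called.

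At 5 ng/mL, 1 of the 10 genes was still called higher in A549 cells (14.8% of entries at the limit) and 1 lower (12.1%). The former was CXCL5, whose excess was 22.5-fold (15.6 to 33.5), and the latter was CXCL1, 2.63-fold lower in A549 cells (2.11 to 3.30). CXCL5 reached the ND limit only in A549 cells and CXCL1 only in BEAS-2B cells, so the limit fixed the direction of both calls. CCL2 was 5.04-fold higher in A549 cells (2.27 to 13.2), with 49 against 7 counts, while the interval of SOD2 held 1, at a ratio of 0.940 (0.775 to 1.14). SAA1 remained at least 29.6-fold lower in A549 cells by the floor (exact interval from 23.4-fold), with 0 against 64 counts. Without the ND limit, 3 of 10 lay lower in A549 cells by an FC of at least 2 (18.6% of entries with a count), SAA2 with 0 against 2 counts among them. By the same rule 3 lay higher, CXCL2 with 8 against 1 counts among them. The share of all entries higher by this rule was not computed.

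**Figure D4:**
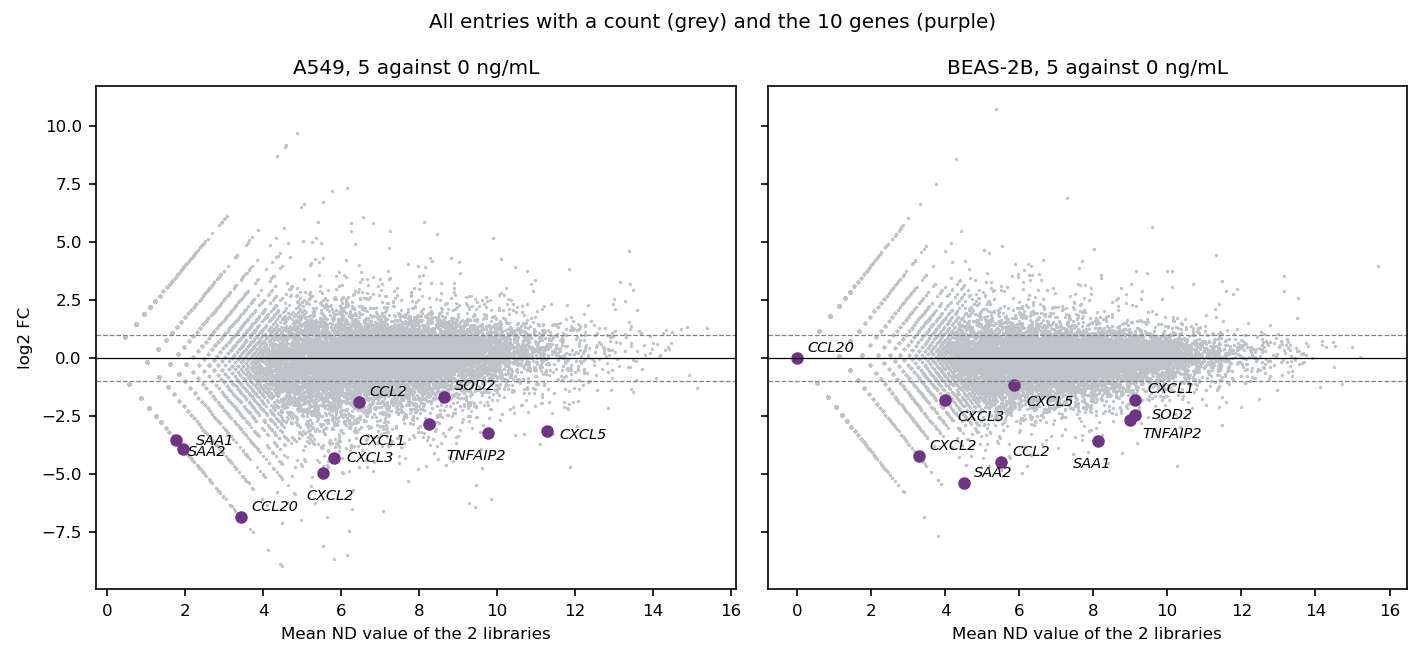
Log2 FC at 5 ng/mL against the control (vertical axis) over the mean ND value of the 2 libraries (horizontal axes) for all entries with a count (gray) and for the 10 genes (purple) in A549 (left) and BEAS-2B cells (right), with dashed lines at an FC of 2. The 10 genes lie between -6.85 and -1.65 in A549 cells and between -5.37 and 0 in BEAS-2B cells, where CCL20 is drawn at 0 because both libraries hold 0 counts.

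Genes that act before or beside these 10 were read from lists of the pathway, with counts given at 5 ng/mL over all genes listed. Beside them stand the shares of all entries at the limit that were called at this dose, 17.1% lower and 16.1% higher in A549 and 11.6% and 7.33% in BEAS-2B. Of the listed genes, the limit was reached in A549 cells by 10 genes of the interleukin-1, tumor necrosis factor and Toll-like receptor pathways, 8 NF-kB subunits and kinases, 10 inhibitors, 12 further inducible genes, 6 acute-phase genes, 10 superoxide and peroxide enzymes and 3 relatives of TNFAIP2, and in BEAS-2B cells by 8, 7, 10, 10, 2, 9 and 3. Nothing particular to a list is read from these counts. At 5 ng/mL, the lower calls of CXCL8, CXCL16, ACKR1, IL18, PLAU, LCN2, CFB, PRDX3, GPX2 and CAT passed the limit through the control only. In A549 cells, the higher calls of MAP3K14 and TNFAIP6 passed it through the treated library only. The limit therefore fixed the direction of these calls, which are described below. Receptors of the 10 genes, genes of their clusters and CHUK, RELA, TNFAIP3, PTGS2, BCL2A1, IER2, NUAK2, PTX3, CP, C3 and SOD1 were chosen after their values were seen, and the other genes are named by the size of their change. Scaling by total counts moved the median of all entries by -0.25 on the log2 scale in A549 cells at this dose, which would take IRAK1, N4BP1, EXOC3 and PRDX1 below an FC of 2. Of 24 other chemokine genes, 9 were at 0 in all libraries, and 2 were called lower in A549 and 1 in BEAS-2B, with 0 higher. CXCL16, a scavenger receptor that is shed as a chemokine, had 263, 227 and 95 counts in A549 cells and 116, 57 and 49 in BEAS-2B cells, and was called lower at 5 ng/mL in both. Of 20 chemokine receptors, 1 reached the ND limit for A549 and 2 for BEAS-2B. CXCR5, chosen after its values were seen, reached it in both lines without a call, with a log2 FC of 0.79 for A549 and 0.49 for BEAS-2B. Among the receptors of the 10 genes, CXCR2 had at most 1 count per library, CCR2 had 0, and CCR6 had 1, 8 and 0 counts in A549 and 0 in BEAS-2B. ACKR1, a decoy receptor that binds chemokines without signaling, was the only receptor called, lower in BEAS-2B cells with 178, 80 and 64 counts, and it had 0 counts in A549 cells at each dose.

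Of 35 ligands, receptors and adaptors of the interleukin-1, tumor necrosis factor and Toll-like receptor pathways, 1 was called lower and 1 higher in A549 and 0 in BEAS-2B at 5 ng/mL. IL18, an epithelial cytokine of the interleukin-1 family, was the lower one, with 322, 43 and 5 counts, 82.2-fold lower at 5 ng/mL (34.9 to 255). It had 48, 3 and 0 counts in BEAS-2B cells, below the ND limit. The higher one was the receptor kinase gene IRAK1, 2.18-fold higher in A549 cells (2.01 to 2.37).

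Among 11 NF-kB subunits and kinases, 3 were called higher and 1 lower in A549 cells, and 0 higher and 1 lower in BEAS-2B cells. NFKB2, the p100 subunit gene, was 3.22-fold higher (2.91 to 3.56), its partner RELB 3.10-fold higher (2.63 to 3.68) and the kinase gene MAP3K14 3.38-fold higher (2.46 to 4.72). None of the 3 was called in BEAS-2B cells, where NFKB2 was 1.23-fold lower (1.12 to 1.34) and RELB 1.14-fold higher (0.969 to 1.34). CHUK, the kinase IKK-alpha, on which MAP3K14 acts, was 2.25-fold lower in A549 cells, and NFKB1, the p105 subunit gene, was 2.40-fold lower in BEAS-2B cells (1.95 to 2.96). RELA, the main activating subunit, was called in neither line, with a log2 FC of 0.82 for A549 and 0.17 for BEAS-2B.

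Of 14 NF-kB inhibitors and feedback genes, 1 was called lower in each line and 1 higher in A549 cells. The higher one was N4BP1, 2.17-fold (1.83 to 2.58). The lower one was NFKBIA, the inhibitor IkB-alpha that NF-kB itself induces. It had 1193, 1507 and 761 counts in A549 cells, which is 2.002-fold lower at 5 ng/mL after scaling (1.83 to 2.20) and stands right at the FC limit. In BEAS-2B cells it had 2180, 905 and 621 counts, 3.11-fold lower (2.84 to 3.40). TNFAIP3, another NF-kB-induced inhibitor, was not called, with a log2 FC of -0.73 for A549 and 0.21 for BEAS-2B.

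Not all genes that NF-kB can induce were lower. Of 25 further ones, 3 were called lower and 5 higher in A549 cells, and 2 lower and 1 higher in BEAS-2B cells. PLAU, the urokinase gene, was lower in both lines, 15.0-fold in A549 (9.57 to 24.6) and 13.3-fold in BEAS-2B (8.57 to 21.8). LCN2, an iron-scavenging acute-phase protein, had 263, 7 and 0 counts in A549 cells. IER3, an early response gene, was higher in both lines, 9.66-fold in A549 (9.28 to 10.1) and 3.29-fold in BEAS-2B (3.19 to 3.39). TNFAIP6, a hyaluronan-binding protein, was 13.7-fold higher in A549 cells (8.01 to 25.4). The remaining calls were PTGS2 (lower) and BCL2A1, IER2 and NUAK2 (higher) in A549 cells and PTX3 (lower) in BEAS-2B cells.

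Further acute-phase genes were also called. Of 16 listed, 6 were called lower in A549 and 2 in BEAS-2B, with 0 higher in either. In A549 cells the fibrinogen chains FGA, FGB and FGG were 26.9-fold (17.4 to 44.0), 28.2-fold (21.3 to 37.9) and 32.2-fold lower (18.2 to 63.1). These 3 genes had at most 1 count in the BEAS-2B libraries. CFB, a complement protease, was lower in both lines, 23.2-fold in A549 (12.7 to 47.3) and 8.81-fold in BEAS-2B (6.79 to 11.6). The complement gene C3 was 8.22-fold lower in A549 and 3.34-fold lower in BEAS-2B, and CP, ceruloplasmin, was the last of the 6 in A549 cells. All 6 in A549 cells reached the ND limit through the control only.

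SOD2 was also set beside 13 other enzymes that remove superoxide or peroxide. In A549 cells 3 of them were called lower and 1 higher, and in BEAS-2B cells 1 was lower. PRDX3, the peroxiredoxin of mitochondria, was lower in both, 10.0-fold in A549 (7.93 to 12.9) and 5.06-fold in BEAS-2B (3.52 to 7.47). GPX2, an epithelial glutathione peroxidase, went from 973 to 22 and 2 counts in A549 and had 0 counts in BEAS-2B. CAT, catalase, was 6.02-fold lower in A549 cells (4.76 to 7.68). PRDX1 was the one called higher, 2.12-fold in A549 cells (2.05 to 2.19). SOD1, the cytosolic dismutase, was called in neither line, with a log2 FC of -0.18 and -0.26. Of 6 relatives of TNFAIP2 by name or by exocyst likeness, only EXOC3 was called, 2.05-fold higher in A549 cells (1.68 to 2.53).

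**Figure D5:**
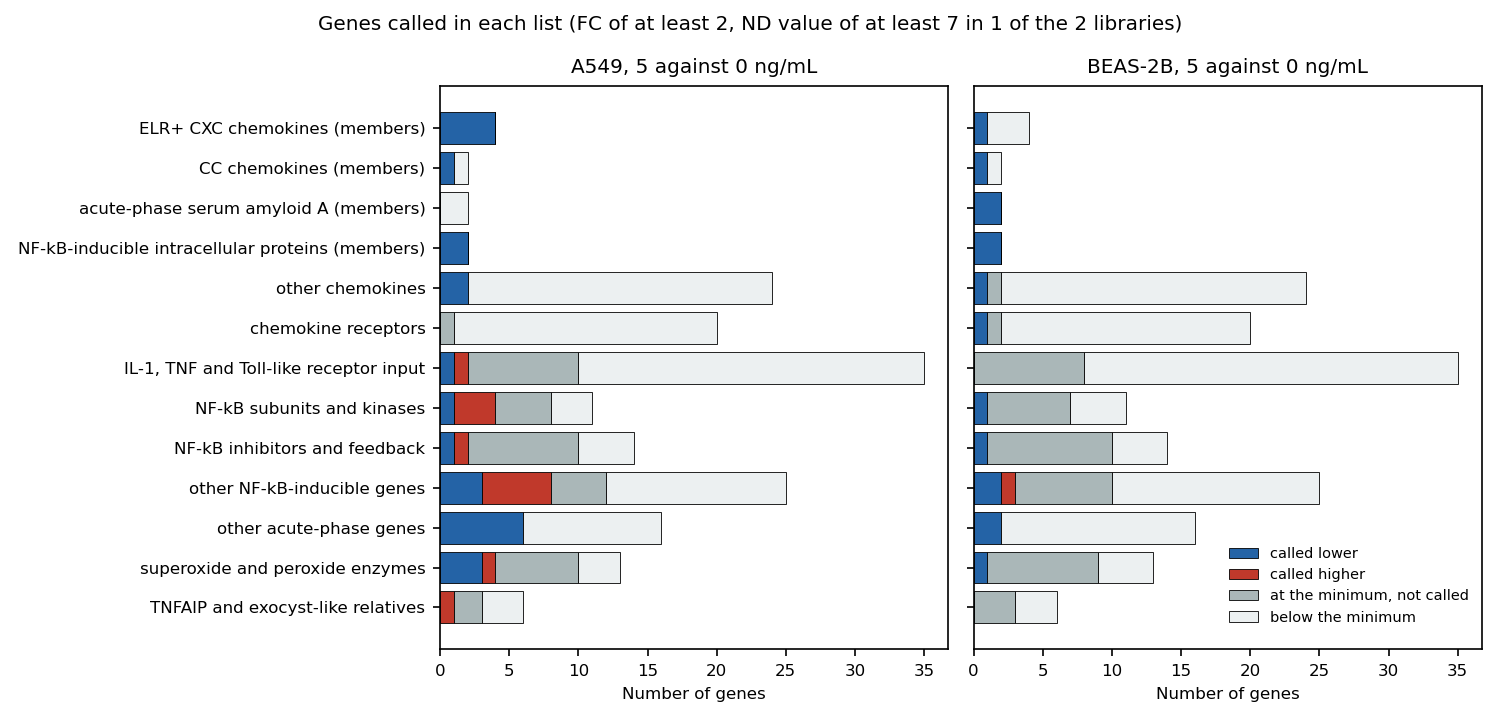
Number of genes (horizontal axes) in each list that were called lower (blue), called higher (red), at the ND limit without a call (gray) or below it (pale gray) at 5 ng/mL against the control, in A549 (left) and BEAS-2B cells (right). The upper 4 bars hold the 10 genes themselves, the marker lists and the genes known to respond to TGF-β1 are not drawn, and red appears in 6 lists in A549 and in 1 in BEAS-2B.

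Across the 6 libraries, the patterns of the 10 genes were compared with those of 9848 entries whose ND values averaged 5 or more, as the root mean square difference of ND values centered on each gene's own mean. This likeness is a description over 6 libraries. The nearest to CXCL1 were CAPZB, SEMA4B and CFAP20, at 0.20, 0.21 and 0.21. Those nearest to SOD2 were GLE1, PIM2 and DNAH11, at 0.14, 0.15 and 0.15. Among the compared entries, those nearest to SAA1 were TXNIP, LY6K and LOC100288181, at 0.76, 0.91 and 1.06. For CCL20 they were RPL23P8, CXCL3 and SLC23A2, at 1.38, 1.43 and 1.46. The ND values of SAA1 and CCL20 themselves averaged less than 5, so entries at their own level were left out. Whether closer entries exist among those was not examined. Within the 10 genes, CXCL1 and SOD2 were the closest pair at 0.43, followed by CCL2 and TNFAIP2 at 0.66, and CXCL5 and SAA1 were the farthest at 5.77.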

How the data were processed

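The authors deposited raw counts of 3′ tags per gene for 6 libraries, 1 per condition, from QuantSeq libraries. The submitters' processing notes name Bowtie2, bedtools and hg19, without their settings. How tags shared by near-identical genes were assigned is not given in the sources used here. Here the counts were scaled by TMM (edgeR 4.0.16, R 4.3.3) over all 25737 entries. Ratios, FC (pseudocount of 1) and exact counting intervals (scipy 1.17.1) were computed in Python 3.11.15. The tags carry no molecular identifiers in the files, so intervals cover counting error only. With 1 library per condition no test was run. Entries are separate rows of the tables, so a symbol can have more than 1. The scripts were tested on simulated data. Members and gene lists were chosen with earlier results of these data known. Genes outside the 10 were named by a rule (per list, up to 4 called genes with the largest log2 FC at 5 ng/mL in either line, and the 3 nearest profiles to CXCL1, CCL20, SAA1 and SOD2), with the exceptions given in the text. Values were also recomputed under other scalings, pseudocounts, ND and FC limits, filters, thinning and summed entries, and with a GC trend removed, which was added after seeing the data. Promoters and transcripts came from RefSeq (GRCh38.p14) and GENCODE.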

Additional observations from a re-analysis of the deposited data

How the results depend on the processing

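The log2 FC of the 10 genes kept its sign in every setting in which a called value was recomputed, and calls with an FC of at least 2 depended mostly on the ND limit. Requiring an ND value of 7 in both libraries left 4 and 3 of the 10 genes called lower in A549 cells at 1 and 5 ng/mL, 3 and 3 in BEAS-2B cells, 0 lower and 1 higher between the untreated lines, and 0 and 0 between the lines at 5 ng/mL. This setting removes by construction the genes that are low after treatment. A mean ND value of at least 7 left 4 and 4 genes lower in A549 cells, and 0 lower and 2 higher between the untreated lines. With no ND limit, 1 gene (CCL20) was higher at 1 ng/mL in BEAS-2B cells, 7 and 4 genes were lower between the doses in A549 and in BEAS-2B, and 3 were lower and 3 higher between the lines at 5 ng/mL. An ND limit of 8 left 1 gene lower between the untreated lines, and a limit of 6 gave 2 lower between the lines at 5 ng/mL. Raising the FC limit to 3 left 1 gene lower between the doses in A549 cells and 0 lower between the lines at 5 ng/mL, and lowering it to 1.5 gave 1 lower between the doses in BEAS-2B cells.

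The median log2 FC of the 10 genes ranged from -2.27 to -1.63 at 1 ng/mL and from -3.81 to -2.95 at 5 ng/mL in A549 cells, and from -2.22 to -2.02 and from -2.68 to -2.48 in BEAS-2B cells. Scaling by total counts moved the median of all entries by -0.19, -0.25, -0.14 and -0.15 in the same order. Removal of a trend over transcript GC content, chosen after seeing the data, moved 6 of 60 single values out of their counting interval. No paired analysis was possible because each condition has 1 library. Depth limits CXCL2, CXCL3 and CCL20 in BEAS-2B cells and SAA1 and SAA2 in A549 cells most, where counts were 37 or fewer.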
